A study of Mus musculus with 81 samples.

Results

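Methylated DNA at gene promoters was described in somatic cells of the fetal mouse testis. A promoter window was defined as a 100 bp window that overlapped the 1000 bp on either side of the start of any transcript in the GENCODE annotation of the mouse genome build GRCm38. The rule selected 9980 of the 154773 windows listed for the F1 generation (6.45%) and 10241 of the 164382 windows listed for the F3 generation (6.23%), near the starts of 7318 and 7574 genes. Of all 26337756 windows of 100 bp on the 20 chromosomes, 6.22% met the same rule, so that the listed windows held promoters at about the share of the genome. The tables covered 0.610% (F1) and 0.626% (F3) of all promoter windows, and only 943 windows, 75 of them at promoters, were listed in both, so each generation was analysed apart.

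All animals belonged to the transgenic OG2 line, in which a Pou5f1 (Oct4) promoter and distal enhancer drive EGFP in germline cells. F0 dams of both exposure groups drank water that contained either 50 nM tributyltin (TBT), an organotin that activates the nuclear receptors RXR and PPARγ, or the solvent DMSO. F1 fetuses were thus exposed in utero, while F3 fetuses descended from the exposed dams through F1 and F2 animals that were bred without further exposure. The EGFP-negative somatic population, named P6, was sorted by FACS from testes at E18.5 (E, embryonic day), and fragments of its genomic DNA were captured by a methyl-CpG binding domain (MBD) protein and sequenced. F1 was represented by 3 DMSO and 4 TBT libraries, F3 by 5 DMSO and 7 TBT libraries, and each library was taken as 1 replicate. P6 is defined by the absence of EGFP and holds all somatic cell types of the testis together, and since these counts measure DNA, the identity of the cells was not checked in them.

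The libraries held between 701493 and 1913353 counts in F1 and between 1105120 and 1556376 in F3. In F1 the DMSO libraries (701493 to 938756) were shallower than 3 of the 4 TBT libraries (887213 to 1913353). Values are given as CPM, counts scaled to a common library total after TMM scaling, and 1 count was worth 0.518 to 1.47 CPM in F1 and 0.737 to 0.885 CPM in F3. No pair of libraries stood apart as a repeated deposit, since the chi-square per degree of freedom between libraries of 1 exposure group lay between 0.999 and 1.03 in F1 and between 0.980 and 1.39 in F3, and pairs across the exposure groups differed as little (0.997 to 1.05 and 0.976 to 1.26). The paper describes its MBD samples as independently generated. P-values measure the spread between these libraries, part of which may be technical.

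In MBD-seq, the capture protein holds DNA fragments through methylated cytosines of CpG dinucleotides, so that the number of fragments from a window depends both on how many CpGs it offers and on whether they are methylated. Most CpGs of a mammalian genome are methylated, whereas the dense CpG clusters at the starts of many genes, the CpG islands, are usually free of methylation. Exceptions with methylated dense promoters in somatic cells include a set of germline genes, the imprinted control regions on 1 parental copy, the inactive X chromosome of females, and many retrocopies and repeats. The deposited CF value of each window equalled its number of CpG sites, counted as the cytosines of CpGs that lie in the window, in 100% of the listed windows.

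Windows of 3 kinds are printed to show what CF means at promoters. All are given on the plus strand of GRCm38.p6 from the RefSeq assembly, in lower case, with each CpG in capitals. The first 3 windows passed the test between exposure groups in F1. Gm24270 is an annotated miRNA gene in an intron of Peak1 (chr9:56223701-56223800, CF 17), and Gm21978 is an unprocessed pseudogene of which an adjoining pair of windows was listed (chr4:145560501-145560600, CF 1, and chr4:145560601-145560700, CF 0).
Gm24270, CF 17: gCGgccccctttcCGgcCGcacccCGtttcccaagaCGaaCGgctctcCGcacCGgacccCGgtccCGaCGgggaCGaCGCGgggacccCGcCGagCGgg
Gm21978, CF 1: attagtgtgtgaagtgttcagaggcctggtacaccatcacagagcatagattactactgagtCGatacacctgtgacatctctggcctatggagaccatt
Gm21978, CF 0: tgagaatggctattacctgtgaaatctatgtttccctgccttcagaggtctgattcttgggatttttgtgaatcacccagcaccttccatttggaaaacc

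The next windows carried many CpGs and high counts. They lie upstream of the predicted gene Gm21887 (F1, chrX:170009301-170009400, CF 19), in an intron of Mov10l1, which encodes an RNA helicase of the piRNA pathway in germ cells (F1, chr15:88983101-88983200, CF 6), in the coding sequence of Apba3, which encodes an adaptor protein that binds the amyloid precursor protein (F3, chr10:81272601-81272700, CF 10), and in the coding sequence of Spaca1, which encodes a protein of the sperm acrosome (F3, chr4:34049801-34049900, CF 12).
Gm21887, CF 19: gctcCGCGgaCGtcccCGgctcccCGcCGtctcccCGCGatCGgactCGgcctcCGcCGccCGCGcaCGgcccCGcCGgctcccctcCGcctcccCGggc
Mov10l1, CF 6: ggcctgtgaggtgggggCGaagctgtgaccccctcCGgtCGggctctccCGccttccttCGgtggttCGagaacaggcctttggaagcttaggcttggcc
Apba3, CF 10: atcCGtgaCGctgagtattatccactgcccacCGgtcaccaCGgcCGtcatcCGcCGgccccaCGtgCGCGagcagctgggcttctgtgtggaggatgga
Spaca1, CF 12: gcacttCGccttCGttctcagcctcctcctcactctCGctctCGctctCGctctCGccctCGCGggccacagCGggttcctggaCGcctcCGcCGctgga

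The last set carried many CpGs and almost no counts. These windows belong to Syf2, a splicing factor gene (F1, chr4:134931301-134931400, CF 9), to Gm12116, which starts beside the homeobox gene Tlx3 (F1, chr11:33203901-33204000, CF 10), to Dnmt3a, the gene of a de novo DNA methyltransferase (F3, chr12:3806701-3806800, CF 20), to Dazl, the gene of a germ cell RNA-binding protein (F3, chr17:50292701-50292800, CF 8), and to Trim28, the gene of a co-repressor that maintains methylation at imprinted regions (F3, chr7:13025101-13025200, CF 7).
Syf2, CF 9: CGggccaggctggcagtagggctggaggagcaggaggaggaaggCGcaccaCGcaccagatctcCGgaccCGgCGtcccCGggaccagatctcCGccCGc
Gm12116, CF 10: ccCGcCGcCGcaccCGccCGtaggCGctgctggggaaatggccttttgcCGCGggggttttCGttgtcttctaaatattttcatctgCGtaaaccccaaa
Dnmt3a, CF 20: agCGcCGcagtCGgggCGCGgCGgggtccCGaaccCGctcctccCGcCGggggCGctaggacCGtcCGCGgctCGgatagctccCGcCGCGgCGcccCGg
Dazl, CF 8: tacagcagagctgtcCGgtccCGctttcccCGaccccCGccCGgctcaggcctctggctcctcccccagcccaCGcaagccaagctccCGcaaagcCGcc
Trim28, CF 7: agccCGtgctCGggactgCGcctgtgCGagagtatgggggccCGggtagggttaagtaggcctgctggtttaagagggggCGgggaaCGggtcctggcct

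At promoters, counts rose with the number of CpGs up to about 3 or 4 per window and then fell. In F1, the mean level over the 7 libraries was 5.52 ± 0.252 CPM (SD) at windows without a CpG (CF 0, 3684 windows), 7.99 ± 0.239 at CF 1 (2652), 10.2 ± 0.214 at CF 2 (1512), 12.1 ± 0.184 at CF 3 (757) and 12.1 ± 0.398 at CF 4 (415). The levels of denser windows were lower, with 9.73 ± 0.253 CPM at CF 5 to 6 (409 windows), 4.72 ± 0.135 at CF 7 to 9 (245) and 2.25 ± 0.121 at CF 10 or more (306). F3 showed the same order with a steeper rise, from 4.94 ± 0.437 CPM at CF 0 (SD over 12 libraries, 3807 windows) to 15.5 ± 1.01 at CF 4 (430 windows) and down to 1.602 ± 0.219 at CF 10 or more (315 windows). The F3 means include windows whose raw counts were nearly the same in all libraries, at Gm21738 (CF 3, 520 CPM), Gm10721 (CF 3, 230 CPM) and Gm10717 (CF 4, 442 CPM). The means of CF 3 and CF 4 lay within 1 SD of each other in both generations, with 15.05 ± 0.623 CPM at CF 3 in F3, but CF 4 was the higher in 11 of 12 F3 libraries, against 4 of 7 in F1.

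Away from starts, no such fall was seen up to CF 9. The other listed windows of F1 rose from 4.30 CPM at CF 0 to 15.5 at CF 4 and stayed at 16.5, 15.5 and 15.9 CPM in the classes CF 5 to 6, 7 to 9 and 10 or more, and those of F3 rose from 3.51 CPM to 19.3 at CF 5 to 6, followed by 18.4 and 12.5. Promoter windows of CF 10 or more were thus at 14.2% of the level of other windows in F1 and at 12.8% in F3. They were lower in 7 of 7 F1 libraries (exact sign-flip permutation test over libraries, two-sided, adjusted p = 0.0176) and in 12 of 12 F3 libraries (adjusted p = 0.000488), and in both generations the unadjusted p was the smallest that the number of libraries allows. For windows without a CpG the order was the opposite, as promoter windows were at 128% of the other windows in F1 and at 141% in F3, again in every library, with the same adjusted p. The test is over libraries that all measure the same windows, so it speaks for these windows and not for promoters in general.

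**Figure D1:**
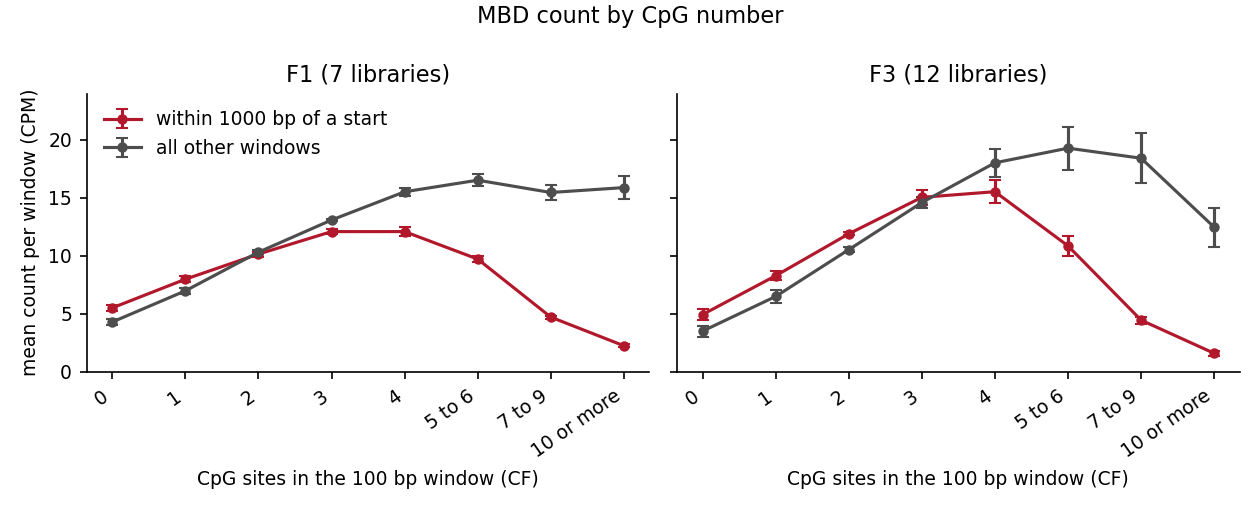
Mean level per window in CPM (vertical axis) against CF, the number of CpG sites per window (horizontal axis), for promoter windows and other listed windows of F1 and F3. Points are means over 7 (F1) or 12 (F3) libraries and bars are SDs between libraries. Promoter windows fall from 12.1 CPM at CF 4 to 2.25 CPM at CF 10 or more in F1, while other windows stay near 16 CPM.

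The dense windows were a mixture of windows near 0 and windows with high counts, and the share of high ones fell with CF. A mean of at least 10 CPM was found at 39.6% of the promoter windows of CF 5 to 6, 13.9% of those of CF 7 to 9 and 4.58% of those of CF 10 or more in F1, and at 40.4%, 14.5% and 2.54% in F3. The median promoter window of F1 was at 2.30 CPM at CF 5 to 6, 0.987 at CF 7 to 9 and 0.781 at CF 10 or more, and in F3 it was at 2.22, 0.393 and 0.445 CPM. Of the windows with CF 10 or more, 199 of 306 in F1 (65.0%) and 268 of 315 in F3 (85.1%) had a mean under 1 CPM, but only 3 and 2 of them had no count in any library. Few promoter windows were empty, with 57 (0.571%) in F1 and 82 (0.801%) in F3 at 0 in all libraries, against 4.07% and 4.24% of the other windows. A count of 0 in 1 library allows up to 3 counts, which is 1.55 to 4.41 CPM in F1 and 2.21 to 2.66 CPM in F3, so levels near 1 CPM cannot be distinguished from 0 in single libraries. These limits cover counting error only.

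Counts also differed with the CpGs around a window, which the CF value does not hold. Among promoter windows of F1 without a CpG of their own, the level was 4.13 ± 0.302 CPM (SD, 7 libraries) with at most 4 CpGs in the 500 bp centred on the window, 9.05 ± 0.231 with 5 to 9, and 11.3 ± 0.63 with 10 to 14 (108 windows). The class with 15 to 24 held only 26 windows, with a mean of 13.9 ± 0.807 CPM and a median window of 11.3 against 12.1 CPM in the class before it. Windows of CF 5 to 6 were at 15.4 ± 0.792 CPM with 5 to 9 CpGs in the 500 bp and at 16.2 ± 0.572 with 10 to 14, and then fell to 11.5 ± 0.349 with 15 to 24 and 3.63 ± 0.139 with 25 or more. In F3 the corresponding levels ran from 3.21 ± 0.559 to 12.3 ± 0.528 CPM for CF 0 with up to 14 CpGs and, for CF 5 to 6, from 16.5 ± 1.14 up to 18.8 ± 1.62 and then down to 12.8 ± 1.27 and 2.83 ± 0.15 CPM (SD, 12 libraries). For windows without a CpG, the last class of F3 held 20 windows, with a mean of 12.6 ± 1.38 CPM and a median window of 8.60, against 13.01 CPM in the class before it.

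The printed windows show both ends of this range. The Syf2 window, with 9 CpGs of its own and 37 in the 500 bp centred on it, was at 1.11, 2.94 and 0 CPM in the DMSO libraries of F1 and at 0.669, 1.2, 3.26 and 1.55 CPM in the TBT libraries. By contrast the Mov10l1 window, with 6 and 28 CpGs, was at 35.4, 32.3 and 39.2 CPM in the DMSO libraries and at 38.8, 35.5, 34.7 and 32.6 CPM in the TBT libraries. All values of Mov10l1 lay above all values of Syf2, and the exposure groups overlapped at both genes. The Gm12116 window beside Tlx3 was at 1.81 CPM on average, close to Syf2.

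In F3, Dnmt3a had 7 listed promoter windows at more than 1 start. The windows of its CpG-dense start (CF 11, 20 and 16) had means of 0.259, 0.123 and 0.256 CPM, with 0 to 2 counts in each of the 12 libraries. A window of CF 5 at another start of the same gene had a mean of 32.4 CPM, with 22.9 to 32.8 CPM in the DMSO libraries (median 31.6) and 21.5 to 43.3 CPM in the TBT libraries (median 37.5). The windows of 1 gene thus held 0 to 2 counts per library at the dense start and 29 to 53 at the other, and the exposure groups overlapped at each of them. The Trim28 window had a mean of 0.191 CPM, and the Dazl window 0.857 CPM with 0 to 2 counts per library. Dazl had no listed promoter window in F1, and Thap1, the other gene whose promoter the study drew, had none in either generation.

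Along the promoter, dense windows were lower near the start than at the outer ends of the profile. In F1, windows of CF 5 or more had 14.6 ± 0.477 CPM (SD, 7 libraries) in the 200 bp bin centred 800 bp upstream, 5.21 ± 0.147 at 200 bp upstream, 4.30 ± 0.115 at the start, 5.31 ± 0.294 at 200 bp downstream and 9.38 ± 0.621 at 1000 bp downstream. In F3 the lowest bin was that centred 200 bp upstream (3.16 ± 0.155 CPM, SD, 12 libraries), and the bin at the start (5.71 ± 0.389 CPM) was above those at 200 and 400 bp downstream (4.59 ± 0.326 and 4.36 ± 0.307 CPM). The outer bins of F3 were higher, with 13.3 ± 1.45 CPM at 800 bp upstream and 11.8 ± 0.744 CPM at 800 bp downstream. The outermost bins hold 20 to 27 windows each, and their levels rest on few windows. Over all libraries, windows of CF 5 or more that lay more than 500 bp from the nearest start had 1.97 times the level of those within 500 bp in F1 (10.4 against 5.27 CPM) and 2.05 times in F3 (10.7 against 5.24 CPM), and were higher in each library (exact sign-flip test, adjusted p = 0.0174 in F1 and 0.000488 in F3). The farther windows held fewer CpGs, with a mean CF of 6.93 against 8.69 in F1 and 6.97 against 8.96 in F3, and CF was not matched. Windows of CF 0 to 1 showed no dip at the start in F1, with 6.88 ± 0.281 CPM there and 8.02 ± 0.216 CPM in the bin at 200 bp downstream, the highest of their profile.

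**Figure D2:**
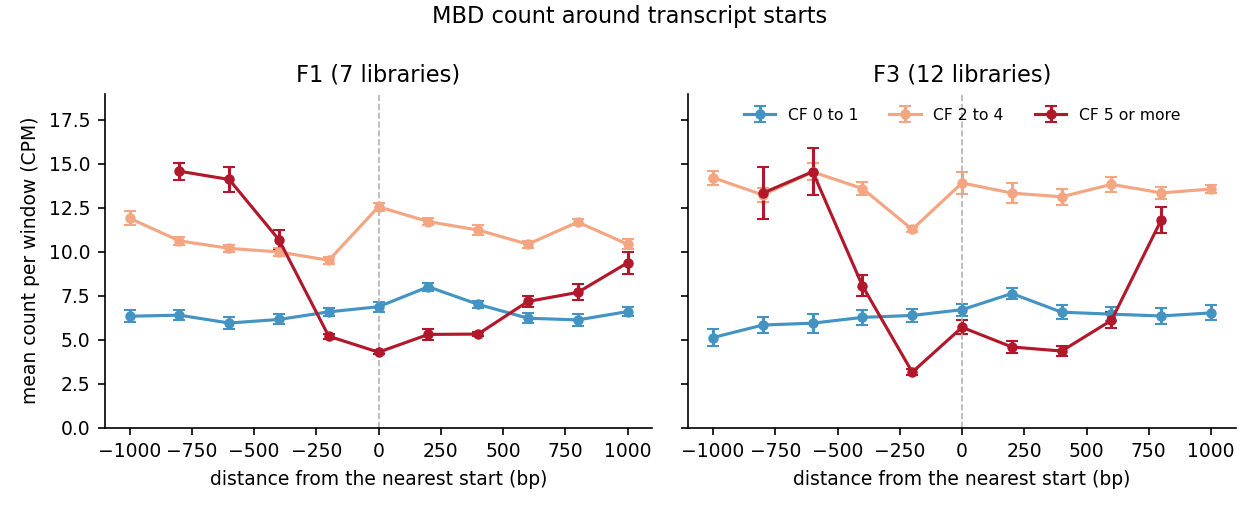
Mean level in CPM (vertical axis) of promoter windows in 200 bp bins against the distance of the window centre from the nearest transcript start in bp (horizontal axis, downstream positive), by CF class, in F1 and F3. Points are means over libraries, bars SDs between libraries, and bins with fewer than 20 windows are left out. Windows of CF 5 or more drop to 4.30 CPM at the start in F1 and to 3.16 CPM 200 bp upstream of it in F3, whereas windows of CF 0 to 1 are at 6.88 and 6.39 CPM there. Windows of CF 2 to 4 are lowest 200 bp upstream, at 9.52 CPM in F1 and 11.3 CPM in F3.

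The type of gene at the start went along with the level of dense windows. Windows of CF 5 or more whose nearest start belongs to a pseudogene had 21.0 ± 1.02 CPM in F1 (61 windows, SD over 7 libraries), against 4.45 ± 0.0462 CPM at protein-coding starts (796 windows), a 4.71-fold difference found in 7 of 7 libraries (exact sign-flip test, adjusted p = 0.0174). In F3 they had 23.1 ± 2.36 CPM (48 windows) against 4.62 ± 0.264 CPM (792 windows), 4.99-fold and in 12 of 12 libraries (adjusted p = 0.000488). Pseudogenes are inactive copies of genes, which arise by reverse transcription of an RNA or by duplication of the gene. Because copies share sequence, the comparison was repeated at single-copy windows, of which 3 stretches of 32 bases each occur once. The levels were 19.98 against 4.26 CPM in F1 and 18.2 against 4.43 CPM in F3, with the same adjusted p-values. Here and below, such occurrences are exact matches on the 20 chromosomes only. Copies elsewhere or with a changed base were not counted, and an effect of copy number was not tested. The pseudogene windows held fewer CpGs, with a mean CF of 6.98 against 8.68 in F1 and 6.73 against 8.96 in F3. Within CF 5 to 6 the ratio was 2.77 in F1 (22.0 against 7.92 CPM) and 2.41 in F3 (22.2 against 9.20 CPM), again in every library and with the same adjusted p-values. At CF 2 to 4 the levels were 14.4 against 10.4 CPM in F1 and 15.2 against 13.3 CPM in F3.

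Dense windows inside coding sequence were higher than those in untranslated regions. At CF 5 or more, windows that overlap coding sequence had 8.68 ± 0.210 CPM in F1 (259 windows) and 11.2 ± 1.04 CPM in F3 (235 windows), against 1.43 ± 0.122 (231 windows) and 1.76 ± 0.236 CPM (239 windows) in untranslated regions. The ratios were 6.06 and 6.37, and coding windows were higher in every library (exact sign-flip test, adjusted p = 0.0174 and 0.000488). At CF 2 to 4 they were 1.75-fold and 2.55-fold higher, respectively. The F3 coding class of CF 2 to 4 includes the Gm10717 window (CF 4, 442 CPM), whose raw counts were nearly the same in all libraries. Distance from the start and CF were not matched between these classes.

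Promoter windows on the X chromosome, which male cells carry as 1 copy, were lower than those on autosomes at CF 2 to 4. They had 5.31 ± 0.421 CPM in F1 (80 windows) against 11.2 ± 0.104 CPM (2604 windows), a ratio of 0.475, and 7.16 ± 0.403 CPM in F3 (83 windows) against 13.6 ± 0.346 CPM (2612 windows), a ratio of 0.528. X windows of this class were lower in every library (exact sign-flip test, adjusted p = 0.0174 and 0.000488). At CF 5 or more the order of the means differed between generations, which was not tested. In F1 the mean was 7.28 ± 1.0 CPM on the X (22 windows) against 6.04 ± 0.0904 on autosomes. In F3 it was 4.54 ± 0.834 (25 windows) against 6.14 ± 0.391 CPM. The X windows of F1 included that of Gm21887 at 87.6 CPM. The median window was lower on the X in both generations, at 0.395 against 1.07 CPM in F1 and 0.273 against 0.525 CPM in F3. Windows that overlap an LTR, the terminal repeat of retroviral elements, by at least 50 bp were at 11.2 against 10.97 CPM without an LTR at CF 2 to 4 in F1, a difference that did not pass the test (higher in 6 of 7 libraries, exact sign-flip test, adjusted p = 0.156). In F3 the LTR windows were at 14.9 against 13.3 CPM and higher in 12 of 12 libraries (adjusted p = 0.000488).

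Enough counts to be tested between exposure groups were found at 3027 promoter windows in F1 (30.3%) and 3987 in F3 (38.9%), but at only 16 of 306 and 9 of 315 windows with CF 10 or more. In F1, 10 of these 16 dense windows lay nearest to a pseudogene start, whereas none of the 290 untested ones did, and 4 lay nearest to a protein-coding start. Of the 16 tested windows 8 were not single-copy, among them that of Cnn3, against 10 of the 290 untested ones, so that part of their reads may come from other copies. The tested windows were chosen by their counts and so had to be the higher ones, with levels from 9.52 to 87.6 CPM and a median of 16.6. The highest was the Gm21887 window printed above, with 78.5, 103 and 97 CPM in the DMSO libraries and 70.3, 68.1, 100.98 and 95.3 CPM in the TBT libraries, and the groups overlapped. The others with a protein-coding gene included Dapk3, which encodes a death-associated protein kinase (CF 12, 28.5 CPM), and Cnn3, which encodes the actin-binding protein calponin 3 (CF 14, 16.6 CPM).

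In F3, 7 of the 9 tested dense windows lay nearest to protein-coding starts, 6 overlapped coding sequence, and their levels ran from 8.88 to 114 CPM (median 27.8). Rpl10l, a retrocopied ribosomal protein gene used in spermatocytes (CF 11), was at 32.5 to 47.2 CPM in the DMSO libraries (median 34.9) and at 34.1 to 66.4 CPM in the TBT libraries (median 43.6). The Spaca1 window was at 22.4 to 36.9 CPM (median 26.5) and 22.6 to 37.1 CPM (median 31.9), respectively. Prm1, the gene of the sperm chromatin protein protamine 1 (CF 10), averaged 10.8 ± 3.43 CPM (SD) over the 5 DMSO libraries and 10.8 ± 1.69 CPM over the 7 TBT libraries. The Apba3 window had 28.8 to 47.8 CPM in the DMSO libraries (median 41.3) and 27.9 to 59.2 CPM in the TBT libraries (median 51.5). Among the others, Sema5b, a semaphorin gene (CF 12), was at 27.8 CPM, Cux1, a homeobox gene (CF 17), at 13.01 CPM and Scx, the gene of the tendon factor scleraxis (CF 10), at 8.88 CPM. The highest value was at the pseudogene Gm13238 (CF 14, 114 CPM), and the pseudogene Gm49697 (CF 12) was at 22.2 CPM. Of these 9 windows 4 were not single-copy (Rpl10l, Gm13238, Gm49697 and Cux1), against 14 of the 306 untested ones, and the middle stretch of 32 bases of the Cux1 window occurs 522 times in the genome. Of the 9 windows, 3 were at an unadjusted p under 0.05 with edgeR, beside 5.16% of all tested windows, and none passed the adjustment. In the edgeR fit these were Rpl10l (log2 fold change 0.32, FDR 0.946), Cux1 (10.4 ± 2.94 against 14.9 ± 4.47 CPM, log2 fold change 0.51, FDR 0.938) and Scx (10.8 ± 2.32 against 7.496 ± 1.14 CPM, log2 fold change -0.54, FDR 0.946). The exposure groups overlapped at each of the 9 windows.

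**Figure D3:**
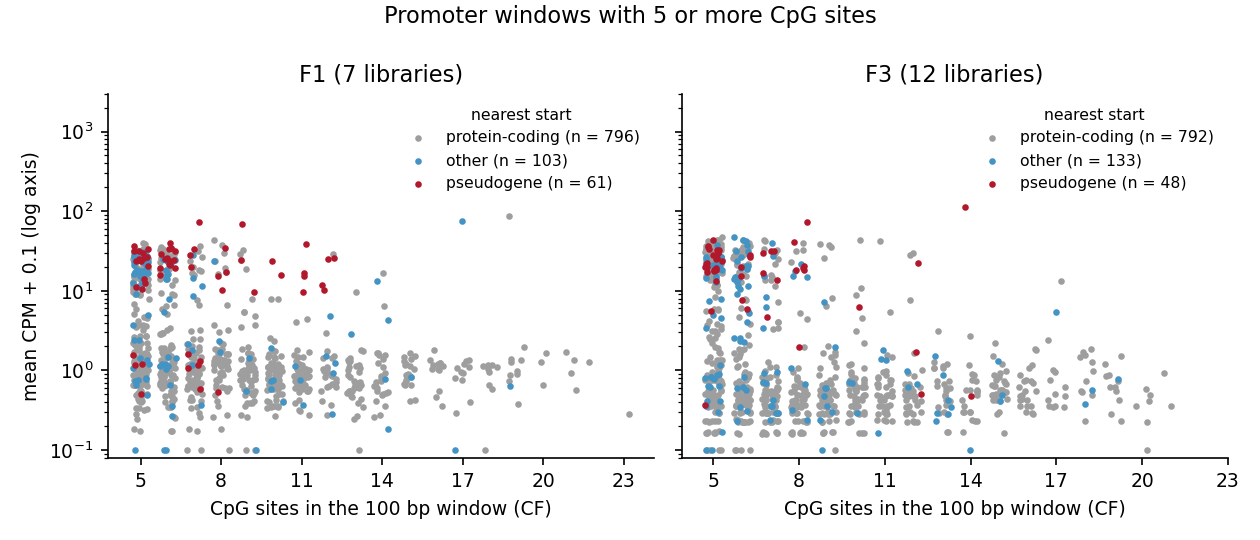
Mean level of each promoter window with CF 5 or more in CPM (vertical axis, mean plus 0.1 on a log axis, so that windows at 0 stand at 0.1) against CF (horizontal axis, points spread sideways within a CF value), coloured by the type of gene at the nearest start, in F1 and F3. Most windows at protein-coding starts lie near 1 CPM or below, and most windows at pseudogene starts lie near 10 CPM or above.

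Between exposure groups, few promoter windows passed the test in F1 and none in F3. In F1, 5 of the 3027 tested promoter windows had an FDR under 0.05 in the quasi-likelihood test of edgeR (2 higher and 3 lower in the TBT group), near 3 genes. Among all 34559 tested windows of the F1 table, 0.0318% were called, 0.00579% higher and 0.026% lower. At an unadjusted p under 0.05 stood 149 promoter windows (80 higher and 69 lower), or 4.92%, against 5.05% of all tested windows. The median log2 fold change over the tested promoter windows was 0.00, and 50.7% were higher in the TBT group. Without the filter on low counts, with DESeq2, or without DMSO library 2, no promoter window of F1 passed (435, 65 and 185 at an unadjusted p under 0.05), and with single-copy windows only 1 did. In F3, 0 of the 3987 tested promoter windows passed with edgeR, and the smallest FDR was 0.636. The share of all 47563 tested F3 windows that were called was likewise 0%. There, 208 promoter windows (112 higher and 96 lower) were at an unadjusted p under 0.05, which is 5.22% against 5.16% of all tested windows, and DESeq2 also called 0. The median log2 fold change of F3 was 0.01, and 52.0% of the tested windows were higher in the TBT group.

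The called pair at Gm24270 was lower in the TBT group of F1. The CF 17 window, which overlaps the miRNA gene itself, was at 98.4, 101.3 and 92.8 CPM in the DMSO libraries and at 59.6, 58.4, 59.7 and 48.2 CPM in the TBT libraries. Every TBT library lay below every DMSO library (log2 fold change -0.80, standard error 0.15, FDR 0.00185). The naming rule required groups without overlap, and 3.33% of all tested F1 windows were separate in this direction. The second window, of CF 0, lies further downstream of the miRNA start, in a stretch of Peak1 intron that RepeatMasker lists as an LTR (chr9:56223401-56223500). It was at 76.3, 77.8 and 71.2 CPM in the DMSO libraries and at 52.9, 46.4, 38.0 and 39.4 CPM in the TBT libraries, again without overlap (log2 fold change -0.75, standard error 0.16, FDR 0.00896). The raw counts of the CF 17 window were 89, 69 and 90 in the DMSO libraries and 89, 97, 55 and 93 in the TBT libraries, and those of the second window 69, 53 and 69 and 79, 77, 35 and 76. In the 3 deep TBT libraries the raw counts were thus near or above the highest of the DMSO libraries, at a greater depth. TBT library 6, of a depth within the range of the DMSO libraries, had the lowest raw counts. Whether the difference in CPM goes back to depth was not tested. The CF 17 call was lost without the filter on low counts, with DESeq2 and without DMSO library 1 or 2. With 1 library left out, its log2 fold change lay between -0.83 and -0.71. Of the 3 stretches of 32 bases taken from the CF 17 window, the first occurs 6 times, the middle 3 times and the last once in the genome, so that its reads may come from other copies.

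Gm21978 was higher in the TBT group of F1, in calls close to the threshold. Its CF 1 window was at 11.1, 13.2 and 8.25 CPM in the DMSO libraries and at 22.8, 22.9, 22.8 and 27.5 CPM in the TBT libraries (log2 fold change 1.19, standard error 0.27, FDR 0.0438). The adjoining CF 0 window was at 17.7, 16.2 and 14.4 CPM and at 32.1, 33.1, 34.7 and 31.6 CPM, respectively (log2 fold change 1.02, standard error 0.23, FDR 0.0438). The groups did not overlap at either window, as the naming rule required, and 3.44% of all tested F1 windows were separate in this direction. The raw counts behind them were small, with 8 to 16 in the DMSO libraries. A fragment can reach both windows, so they are not independent. Neither window passed with total counts in place of TMM scaling, without the filter on low counts, with DESeq2, with windows of at most 100 counts or with any 1 library left out. With 1 library left out, the log2 fold changes lay between 1.04 and 1.33 (CF 1 window) and between 0.96 and 1.10 (CF 0 window). The CF 1 window was single-copy, whereas the middle stretch of 32 bases of the CF 0 window occurs 3 times and the last 2 times in the genome.

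The last called window, upstream of the predicted gene Gm21738 on chromosome 14 (chr14:19419701-19419800, CF 0), was lower in the TBT group by the test (log2 fold change -0.72, FDR 0.00230), but its groups overlapped. It was at 260, 345 and 240 CPM in the DMSO libraries and at 161, 151, 263 and 125 CPM in the TBT libraries. Its raw counts were nearly the same in all 7 libraries, from 233 to 250, although the library totals differed 2.73-fold, so that its CPM followed the inverse of the depth. In the genome, 96 of its 100 bases are undetermined. Windows of at least 100 counts with such a flat count, the highest at most 1.2 times the lowest, numbered 2 in F1 (1 at a promoter) and 12 in F3 (8 at promoters).

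**Figure D4:**
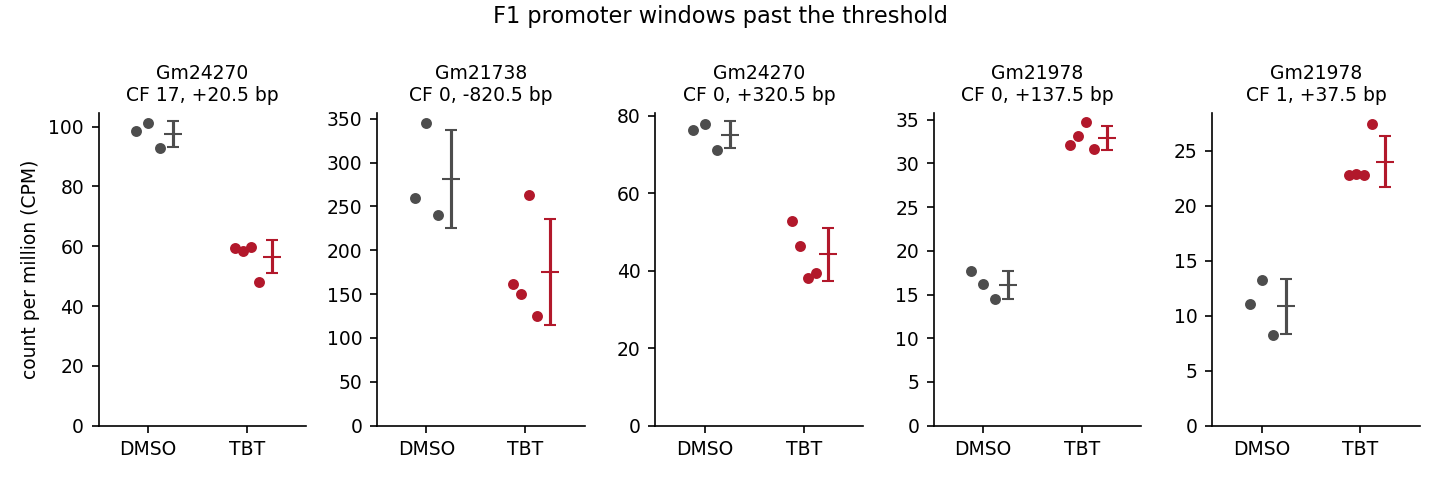
Level in CPM (vertical axis) of the 5 promoter windows called in F1, for each DMSO and TBT library (points), with the group mean as a horizontal line and the SD as a vertical bar. Panel headings give CF and the distance of the window centre from the nearest start in bp. The TBT libraries lie below the DMSO libraries at both Gm24270 windows and above them at both Gm21978 windows, and the groups overlap at Gm21738.

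Counts were also summed over all promoter windows of each gene. Of 2881 genes tested in F1, 2 had an FDR under 0.05 with edgeR (0.0694%). The sum of 3 windows at Gm24270 averaged 196 ± 9.45 CPM (SD) over the 3 DMSO libraries and 115 ± 13.7 CPM over the 4 TBT libraries (log2 fold change -0.77, FDR 0.00506), and the sum of 2 windows at Gm21978 was 26.9 ± 3.69 against 56.9 ± 1.82 CPM (log2 fold change 1.09, FDR 0.0144). At an unadjusted p under 0.05 stood 156 of the 2881 genes. No gene passed with single-copy windows, with starts of protein-coding genes, without DMSO library 1 or without TBT library 5, 1 did without DMSO library 3, and 9 did with edgeR's likelihood ratio test. In F3, 0 of 3465 genes passed (0%), with 156 at an unadjusted p under 0.05, and DESeq2 called 0 as well.

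No gene of the lists of germline, imprinted, testicular, nuclear receptor, methylation machinery, Hox, zinc finger or chemoreceptor genes passed the test in either generation. Of 49 germline genes, 12 had a listed promoter window in F1 and 9 in F3, and 7 and 5 were tested. In F1 their median log2 fold change was 0.09, beside 0.00 over all tested genes, and 6 of the 7 were above 0. The X-linked germ cell gene Tex13b had the lowest p, with 17.7 to 19.09 CPM in the DMSO libraries and 25.9 to 32.6 CPM in the TBT libraries of F1 (log2 fold change 0.57, unadjusted p = 0.0197, FDR 0.711 with edgeR). In F3 another window of the gene was at 9.59 to 13.3 and 8.90 to 20.4 CPM (log2 fold change 0.46, FDR 0.958). Sycp1, of the synaptonemal complex, and Stag3, a meiotic cohesin subunit, had log2 fold changes of 0.36 and 0.22 in F1 with FDRs of 0.994. In F3 the median over the 5 tested genes was 0.02, with 3 above 0, and Rpl10l and the piRNA pathway gene Tdrd9 were at 0.32 and -0.26.

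Among imprinted genes, 4 of 39 had a window in F1 and 5 in F3, and 2 and 3 were tested. The F3 windows of Gnas, which encodes the alpha subunit of the stimulatory G protein, summed to 34.9 to 52.4 CPM in the DMSO libraries and 42.1 to 76.8 CPM in the TBT libraries (log2 fold change 0.36, unadjusted p = 0.0313, FDR 0.958 with edgeR). The other tested genes had log2 fold changes of 0.01 (Peg3, a paternally expressed zinc finger gene) and 0.20 (Nespas, an antisense RNA of the Gnas locus) in F1, and of 0.20 (Mkrn3, a makorin gene) and -0.14 (Inpp5f) in F3. For testicular somatic genes, 5 of 34 had a window in F1 and 3 in F3. The lowest p of F1 was at Hsd17b3, the enzyme of testosterone synthesis in the fetal testis (14.3 ± 1.89 against 10.8 ± 2.55 CPM, log2 fold change -0.32, FDR 0.994), followed by Amhr2, the receptor of anti-Müllerian hormone (-0.14), and the only gene of this list tested in F3 was Gli1, a Hedgehog target (log2 fold change 0.05). The list of endothelial, macrophage and blood cell genes had 3 of 13 genes with windows in F1, none tested, and 4 in F3, all tested, of which 2 were above 0 (median log2 fold change 0.05). The 3 of lowest p were the endothelial genes Pecam1 (0.21) and Cdh5 (0.14) and the macrophage gene Cd68 (-0.09).

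For nuclear receptors and fat cell genes, which include the receptors that TBT activates, 9 of 25 had a window in F1 and 7 in F3, and 5 and 3 were tested. Zfp423, a regulator of fat cell commitment, was at 41.9 ± 6.84 against 48.3 ± 8.48 CPM in F1 (log2 fold change 0.18), and the fatty acid synthase gene Fasn at 24.4 ± 2.08 against 27.5 ± 3.61 CPM (log2 fold change 0.13), while Srebf1, a regulator of lipid synthesis, had a log2 fold change of -0.12. The median over the 5 genes was 0.09, with 4 above 0. In F3 the leptin gene Lep was at 36.0 ± 9.16 against 30.3 ± 6.26 CPM (log2 fold change -0.25, FDR 0.963), the adiponectin gene Adipoq had a log2 fold change of 0.18 and the receptor gene Ppard one of 0.00, which was also the median. In the list of the DNA methylation machinery, Zbtb38, which encodes a zinc finger protein that binds methylated DNA, came closest in F1 (70.4 ± 7.03 against 55.6 ± 6.97 CPM, unadjusted p = 0.0520, FDR 0.929 with edgeR), and Tet1 and Dnmt1 were at log2 fold changes of -0.16 and 0.12. In F3 the genes of lowest p were Dnmt3a, Mbd2 and Tet2, at 0.20, -0.14 and 0.09. The median log2 fold changes of this list were -0.16 over 3 genes in F1 and 0.03 over 6 genes in F3.

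Of 39 Hox genes, 5 had windows in F1 and 11 in F3, with a median window level of 3.34 and 0.994 CPM, and 1 and 0 were tested (Hoxb3, log2 fold change 0.27). The counts at an unadjusted p under 0.05 that follow stand beside 156 of all 2881 tested genes in F1 and 156 of 3465 in F3. Of 374 zinc finger genes, 55 and 66 had windows and 22 and 24 were tested, of which 1 was at an unadjusted p under 0.05 in F1 (Zfp114, log2 fold change 0.69) and 2 in F3 (Zfp821, -0.44, and Zfp982, 0.55). The medians were 0.07 and 0.03, and the next genes by p were Zfp111 (-0.46) and Zfp534 (0.54) in F1 and Zfp976 (0.41) in F3. The 1433 olfactory and vomeronasal receptor genes had windows at 220 genes in F1 and 237 in F3, with a median CF of 0. Among the 40 tested in F1, 1 was higher and 3 lower at an unadjusted p under 0.05, led by Vmn1r95 with 36.6 ± 7.60 against 21.1 ± 3.49 CPM (log2 fold change -0.78, FDR 0.390), Olfr270 (-1.10) and Olfr411 (-0.81). The 3 stretches of the Vmn1r95 window occur 8, 20 and 3 times in the genome. The median was -0.14, with 15 of 40 above 0. Among the 60 tested in F3, 1 was higher (Olfr15, 0.85) and 1 lower (Olfr287, -0.43), Olfr99 followed at -0.41, and the median was 0.02, with 35 above 0. The 61 genes that the study listed beside differentially methylated regions, a list made on these samples, included 16 with a listed promoter window in F1 and 13 in F3. Of these, 7 were tested in each generation, with a median log2 fold change of 0.06 in F1 and 0.04 in F3, and none passed. The study listed the genes for CpG islands over the start that differed in F1 by QSEA. Their windows here had a median CF of 1, with 3 of 31 in F1 and 1 of 17 in F3 at CF 7 or more. They may therefore not be the regions that the study tested. The genes of lowest p were Rps9 (0.26), Prr23a2 (0.18) and Rps24 (-0.16) in F1 and Mcrs1 (0.29), Bahcc1 (-0.30) and Gm13363 (0.15) in F3, of which only Mcrs1 was at an unadjusted p under 0.05.

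The share of all counts that fell at promoter windows did not differ between exposure groups beyond the spread of the libraries. It was 7.67 ± 0.165% (SD, n = 3) in the DMSO group of F1 and 7.70 ± 0.0651% (SD, n = 4) in the TBT group (exact permutation test, two-sided, p = 0.80, adjusted p = 0.857). In F3 it was 8.39 ± 0.155% (SD, n = 5) and 8.37 ± 0.424% (SD, n = 7), with an exact permutation p of 0.952. With 3 against 4 libraries, the smallest p that the exact test can give is 0.0571, so no share of F1 could pass.

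By CF class, the groups did not overlap in 1 case. The share at promoter windows of CF 10 or more in F1 was 0.0701%, 0.0718% and 0.0712% in the DMSO libraries and 0.0683%, 0.0683%, 0.0657% and 0.0667% in the TBT libraries (exact permutation p = 0.0571, adjusted p = 0.514). The difference of -0.00378 percentage points became 0.000223 without the Gm24270 window of CF 17 and 0.00034 with single-copy windows only, settings chosen after the data were seen. In F3 the share at CF 1 was 2.33 ± 0.0209% (SD, n = 5) in the DMSO group and 2.26 ± 0.0492% (SD, n = 7) in the TBT group, with an exact permutation p of 0.00758 that gave an adjusted p of 0.0682 over the 9 shares tested. Without TBT library 10 the adjusted p was 0.039.

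In F3, the median fold change rose from CF 1 to CF 7 to 9 at promoters and elsewhere. The median log2 fold change of tested promoter windows was 0.02 at CF 0, -0.02 at CF 1, 0.00 at CF 2, 0.03 at CF 3, 0.06 at CF 4, 0.08 at CF 5 to 6 and 0.09 at CF 7 to 9, where 73.2% of 41 windows were higher in the TBT group. At CF 10 or more it was -0.02, with 4 of 9 windows higher. At other windows it reached 0.15 at CF 7 to 9 and 0.18 at CF 10 or more. With a smooth offset per library on CF, the median at CF 7 to 9 was -0.03 at promoters and 0.03 elsewhere, and that at CF 10 or more was -0.13 at promoters and 0.07 elsewhere, where CF 0 was at -0.05. The ratio of the promoter level at CF 4 to that at CF 0, which describes how strongly a library favours CpG-rich windows, ran from 2.79 to 3.46 in the DMSO libraries of F3 and from 2.35 in TBT library 8 to 3.78 in the TBT group, and the groups did not differ in it (exact permutation test, p = 0.652). TBT library 8 also had the lowest TMM factor (0.867) and the fewest promoter windows at 0 (5.13%, against 10.3% to 19.5% in the other 11 libraries). In F1 the ratio ran from 1.99 to 2.47 in the DMSO libraries and from 2.13 to 2.35 in the TBT libraries (exact permutation test, p = 0.686), and the medians by CF class lay between -0.05 and 0.03 at promoters and between -0.01 and 0.07 at other windows.

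**Figure D5:**
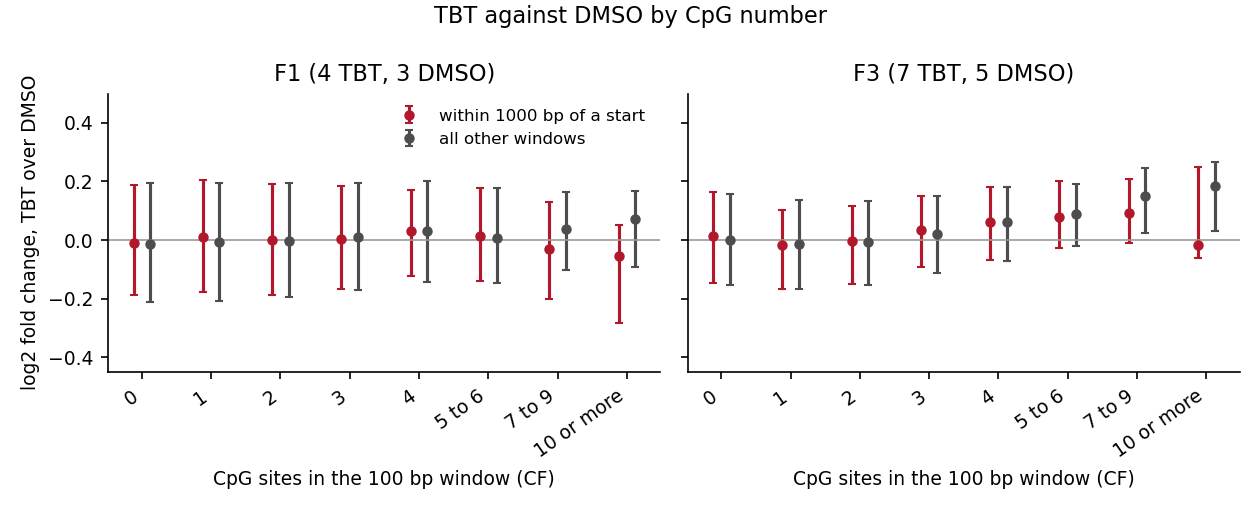
Log2 fold change, TBT against DMSO, of the tested windows (vertical axis) by CF class (horizontal axis), for promoter windows and other listed windows of F1 and F3. Points are medians and bars span the middle 50% of the windows. The medians lie between -0.05 and 0.07 in F1, and at the promoters of F3 they rise from -0.02 at CF 1 to 0.09 at CF 7 to 9 and are at -0.02 at CF 10 or more.

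The windows of highest mean CPM were named by rule. In F1 they were those of Gm21738 (221 CPM), Sfi1, a centrosome protein gene (180 CPM), 4930467E23Rik (161 CPM), Sp110, a nuclear body protein gene (128 CPM) and Pisd-ps2 (98.0 CPM), and in F3 those of Gm21738 (520 CPM), Gm10717 (442 CPM), Sfi1 (242 CPM), Gm10721 (230 CPM) and Gm10801 (164 CPM). The F1 windows of Sfi1 and Pisd-ps2 and the F3 window of Gm21738 were single-copy by the 3 stretches of 32 bases, and the other 7 were not. In F3 the raw counts were nearly the same in all 12 libraries at Gm21738 (623 to 659), Gm10717 (532 to 559), Gm10721 (278 to 295) and Gm10801 (198 to 214), although the library totals differed 1.41-fold, so that their CPM followed the inverse of the scaled depth and is no measure of a level. The Sfi1 window of F1 was at 175 to 220 CPM in the DMSO libraries and at 148 to 173 CPM in the TBT libraries (log2 fold change -0.32, FDR 0.976 with edgeR), and that of F3 at 232 to 323 CPM (median 268) and 177 to 288 CPM (median 225; log2 fold change -0.26, FDR 0.913). Every TBT library of F1 lay below every DMSO library at Sfi1 and also at 4930467E23Rik (140 to 165 against 171 to 181 CPM, log2 fold change -0.23), Sp110 (120 to 124 against 126 to 147 CPM, -0.18) and Pisd-ps2 (77.1 to 103.6 against 104 to 124 CPM, -0.41, unadjusted p = 0.0043 with edgeR), but none of the 4 passed the test, with FDRs of 0.938 and above. Over all tested windows of F1, the groups were separate in this direction at 3.33% and in the other at 3.44%. At the 4 windows of F3 with flat counts, the log2 fold changes lay between -0.01 and 0.03 with standard errors of 0.07 to 0.09, and their sign was set by the scaling of the libraries.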

How the data were processed

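For MBD-seq, sonicated genomic DNA of P6 cells was enriched with the MethylMiner kit. For each listed window of 100 bp, the deposited tables give the raw count of every library and the CF value, which were the columns used. Per the labels, the submitters' processing notes name the build mm10 and the tools Trim Galore, STAR and edgeR. The paper describes these tools for RNA-seq and names QSEA for MBD-seq. How the listed windows were chosen, whether reads or fragments were counted and how duplicates were handled is not given in the sources used here. The study's test with QSEA and an input library was not repeated, and counts carry no correction for CpG density or input. Number of count columns not used: 0.

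Windows were annotated with GENCODE transcripts on GRCm38 (139486 transcripts) and RefSeq sequence (GRCm38.p6). The whole table of a generation was fitted with exposure as the only term by the quasi-likelihood test of edgeR 4.0.16 in R 4.3.3, after TMM scaling and filterByExpr, with Benjamini-Hochberg adjustment across all windows tested (FDR 0.05). Promoter sums per gene were fitted in the same way. Shares of counts were compared by exact permutation tests over libraries. Classes of windows were compared within libraries by exact sign-flip tests, chosen after the data were seen, whose smallest p is 0.0156 for F1 and 0.000488 for F3, adjusted over 9 CF classes or 10 contrasts. DESeq2 1.42.0 was an alternative. Tables were handled with pandas 2.3.3 in Python 3.11.15. Between libraries, the biological coefficient of variation was 2.73% (F1) and 6.56% (F3).

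Named windows followed 1 rule: called windows without overlap of the groups, the 5 windows of highest mean CPM, the windows of Thap1 and Dazl, and from each gene list the 3 genes of lowest p. The windows of CF 10 or more, the printed sequences and the Gm21738 window of F1 among the called ones were chosen after their values were seen. The members and lists were chosen with earlier results of these data known. The fit was tested on simulated data with known changes.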

Additional observations from a re-analysis of the deposited data

Results flagged for a closer look

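Of 104 groups of 4 to 10 libraries looked at, 6 held a library whose distance to its nearest neighbour took most of the range of the group, while chance gives about 1 in 20 such groups. In F1, the TBT group was set apart by its lowest library at the Gm24270 window of CF 17 (48.2 CPM, against 58.4 to 59.7 in the other libraries) and by its highest library at the Gm21978 window of CF 1 (27.5 CPM, against 22.8 to 22.9). The highest TBT library of F1 also stood apart at the dense windows of the pseudogenes Gm8200 (18.1 CPM) and Gm1848 (22.8 CPM) and at a window of Brdt, a germ cell bromodomain gene (26.1 CPM). In F3, the highest of the 5 DMSO libraries stood apart at the window of Rpl10l (47.2 CPM, beside 32.5 to 36.3 in the others).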

How the results depend on the processing

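In F1, 5 promoter windows were called (2 higher, 3 lower). With total counts in place of TMM and with windows of at most 100 counts on average, 3 were called and 0 higher, and without a filter and with DESeq2, 0 in either direction (435 and 65 at an unadjusted p under 0.05). With starts of protein-coding genes and with single-copy windows, 1 was called, 0 higher and 1 lower. Leaving out 1 library gave 0 to 4 windows (0 to 1 higher, 0 to 4 lower), with 0 without DMSO library 2, 1 without DMSO library 1, 2 without DMSO library 3, TBT library 4 or TBT library 5, and 3 without TBT library 7, where the 1 higher call was not at Gm21978. The median log2 fold change of F1 moved to 0.046 without a filter and lay between 0.0039 and 0.027 with 1 library left out. The 2 genes called in F1 by promoter sums became 6 without a filter, 9 with edgeR's likelihood ratio test, 0 with protein-coding starts or single-copy windows, and 0 to 3 with 1 library left out (0 without DMSO library 1 or TBT library 5). In F3, 0 windows were called under every alternative run, and promoter sums gave 0 to 1 genes with 1 library left out (1 without TBT library 7). The median log2 fold change of F3 was -0.015 with total counts and -0.014 with the CF offset. The cause of these changes was not tested. Single-copy windows, the limit of 100 counts and the removal of the Gm24270 window were chosen after seeing the data, and the CF offset for promoter sums was not run.

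The difference in the promoter share (TBT minus DMSO, in percentage points), 0.0254 in F1 and -0.0194 in F3, turned to -0.0694 and 0.1004 with TMM library sizes and to 0.0689 in F3 at windows of at least 20 counts, and lay between -0.0289 and 0.120 in F1 and between -0.107 and 0.102 in F3 with 1 library left out. By CF class, the differences of F1 turned to 0.00758 (CF 0) and 0.00189 (CF 7 to 9) with 500 bp on either side, to -0.0216 (CF 1) and -0.0078 (CF 2) with TMM library sizes, and to 0.00034 with single-copy windows and 0.000223 without the Gm24270 window (CF 10 or more). Those of F3 turned to -0.00164 (CF 0, 500 bp) and 0.0127 (CF 2, at least 20 counts). With 1 library left out, F1 ranged from -0.00212 to 0.00989 (CF 1), -0.00414 to 0.0394 (CF 2), -0.0112 to 0.0484 (CF 3), -0.00641 to 0.0386 (CF 4), -0.000154 to 0.0286 (CF 5 to 6) and -0.00397 to 0.00423 (CF 7 to 9), and F3 from -0.0127 to 0.0197 (CF 0), -0.0491 to 0.0146 (CF 2), -0.0126 to 0.0506 (CF 3) and -0.000251 to 0.00207 (CF 10 or more). At F3 windows with flat raw counts, where the sign follows the library scaling alone, the log2 fold change turned at Gm21738 and Gm10717 to -0.011 and -0.014 with total counts, -0.0072 and -0.049 with the CF offset, -0.0019 and -0.0042 without a filter and -0.031 and -0.035 at means of at least 20 counts, where Gm10721 turned to -0.0019. With 1 library left out they lay between -0.023 and 0.045 (Gm21738), -0.025 and 0.045 (Gm10717), and -0.047 and 0.021 (Gm10801). No paired analysis was possible because the library numbers run through both exposure groups, so that DMSO and TBT libraries share none. At this depth, 290 of 306 (F1) and 306 of 315 (F3) promoter windows of CF 10 or more were untested, and a window near 0 cannot show a loss.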
